A study of Mus musculus with 6 samples.

Results

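The miR-34 family was followed across the aortas of Apoe-deficient mice with and without Dicer in lysozyme M-expressing cells. Its members were the assays named miR-34a, miR-34b-3p and miR-34c, without star strands, and all 3 were present among 517 microRNA assays. The tested mice carried LysM-Cre, floxed Dicer on 2 copies and no Apoe (LysM-Cre/Dicerflox/flox/Apoe–/–, here Dicer_KO, 3 aortas), and their littermates carried the same Cre with wild-type Dicer and no Apoe (LysM-Cre/Dicerwt/wt/Apoe–/–, here Dicer_WT, 3 aortas). All 6 mice were male, entered the study at 6 to 8 weeks of age and ate a high-fat diet with 21% crude fat for 12 weeks. Lysozyme M drives Cre in macrophages, monocytes and neutrophils, whereas the RNA came from the whole vessel, although the labels also give macrophage as the cell type. Dicer mRNA was not measured, so the genotypes had no check in these data.

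The miR-34 genes are known as direct transcriptional targets of p53, the transcription factor that answers DNA damage. Their 5p strands lower cell cycle and survival proteins, and miR-34a also lowers the deacetylase SIRT1 and is known to increase in ageing vessels and hearts. miR-34a has a gene of its own, while miR-34b and miR-34c are cut from a shared primary transcript that, together with the miR-449 cluster, is best known from cells with motile cilia. Dicer cuts each of these hairpins into its mature strands.

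The mature sequences show which strands can bind the same targets, since the seed, bases 2 to 8 from the 5′ end, sets most of the pairing with an mRNA. They are given in RNA letters from RefSeq on GRCm38.p6, with the seed in capitals.
miR-34a-5p: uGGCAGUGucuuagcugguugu
miR-34b-5p: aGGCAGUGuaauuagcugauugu
miR-449a-5p: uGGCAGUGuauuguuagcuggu
miR-449c-5p: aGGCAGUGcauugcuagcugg
miR-34b-3p: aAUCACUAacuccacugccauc
miR-34c-3p: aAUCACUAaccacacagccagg
Of the sequences shown, those of miR-34a-5p, miR-34b-5p, miR-449a-5p and miR-449c-5p have the seed GGCAGUG and those of miR-34b-3p and miR-34c-3p the seed AUCACUA, so miR-34b-3p does not carry the seed of miR-34a. It shared 17 of 22 positions with miR-34c-3p, which was taken as the strand of the assay named miR-34c*, and 8 of 22 with miR-34a-5p. The assays named miR-34a and miR-34c were taken as those of the 5p strands, miR-34a-5p and miR-34c-5p. The reference used held no mature entry for miR-34c-5p, so its sequence and seed are not shown.

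miR-34a-5p lies on chr4:150068473-150068494 (plus strand, GRCm38.p6), inside the Mir34a hairpin of 102 bases. miR-34b-3p lies on chr9:51103574-51103595 (minus strand), and the Mir34b hairpin is separated from the Mir34c hairpin at chr9:51103034-51103110 by 451 bases. The Mir34b hairpin is shown to place the measured strand, with both mature strands in capitals, miR-34b-5p first and miR-34b-3p second.
Mir34b: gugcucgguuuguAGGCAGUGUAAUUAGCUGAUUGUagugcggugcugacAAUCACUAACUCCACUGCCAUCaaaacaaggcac
The array read the second of these strands and held no assay for the first, so for miR-34b the strand with the family seed was not measured.

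Each aorta was read by TaqMan PCR on 2 cards as a threshold cycle (Ct), in which a lower Ct means more RNA. Below Ct 35, taken as detected, lay 349 to 366 assays in Dicer_KO aortas and 374 to 378 in Dicer_WT aortas, and all 3 miR-34 members were detected in all 6 aortas. Values are given as relative quantities, a linear ratio to the geometric mean of the Dicer_WT aortas after subtraction of the authors' reference RNAs, or as log2 of it. The number of aortas limits the precision. In the fit over 377 assays, 7 (1.86%) were called lower in Dicer_KO aortas and 0 (0%) higher (limma, adjusted p under 0.05), with 92 lower and 9 higher at an unadjusted p under 0.05. The median log2 fold change of these assays was -0.42, and 78.2% of them were below 0.

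None of the 3 members was called lower or higher in Dicer_KO aortas. miR-34b-3p and miR-34c stood at 0.685 and 0.677 times the Dicer_WT level, close to the median of all assays, and miR-34a at 0.931 times. For 0 of 3 members did the aortas of the genotypes separate, where 32.6% of assays tested lay lower in every Dicer_KO than in every Dicer_WT aorta and 2.39% lay higher. In RNA from a whole vessel, fewer cells that make a microRNA and less of it per cell cannot be told apart.

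miR-34a, the member with its own p53-driven gene, was read at Ct 22.9, 23.9 and 23.2 in Dicer_KO aortas 1, 2 and 3 and at 22.8, 23.0 and 23.4 in Dicer_WT aortas 1, 2 and 3. Its relative quantity was 1.12, 0.681 and 1.06 in the Dicer_KO aortas, against 1.04, 1.11 and 0.864 in the Dicer_WT aortas. Dicer_KO aortas 1 and 3 thus lay within or just above the Dicer_WT range and aorta 2 lay below it. The means were 0.953 ± 0.237 in Dicer_KO and 1.01 ± 0.127 in Dicer_WT aortas (SD, n = 3 each). Between genotypes the log2 level differed by -0.10 ± 0.256 (SE, limma adjusted p = 0.766), with a 95% interval of -0.73 to 0.53, which as a fold runs from 0.602 to 1.44. Without Dicer_KO replicate 2 it was 0.12. By this value 73.5% of assays tested stood lower than miR-34a.

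miR-34b-3p, the 3p strand of the first hairpin on chromosome 9, was read at Ct 24.8, 25.5 and 26.0 in Dicer_KO aortas 1, 2 and 3 and at 24.4, 24.6 and 24.9 in Dicer_WT aortas. Its relative quantity was 0.935, 0.703 and 0.489 in the Dicer_KO aortas, against 1.06, 1.06 and 0.891 in the Dicer_WT aortas. Dicer_KO aortas 2 and 3 lay below all Dicer_WT aortas, and Dicer_KO aorta 1 lay between Dicer_WT aorta 3 and the other two. The means were 0.709 ± 0.224 in Dicer_KO and 1.00 ± 0.0971 in Dicer_WT aortas (SD, n = 3 each). Its log2 fold change between genotypes was -0.55 ± 0.278 (SE, limma adjusted p = 0.229), with a 95% interval of -1.23 to 0.14. With Dicer_KO replicate 1 left out it was -0.77 (adjusted p = 0.0753), and with Dicer_KO replicate 3 left out -0.30 (adjusted p = 0.456, from 0.0753 to 0.95 over its alternatives), so its size rested on these 2 aortas.

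miR-34c, cut from the neighbouring hairpin, was read at Ct 27.9, 29.0 and 29.5 in Dicer_KO aortas and at 27.4, 27.9 and 28.7 in Dicer_WT aortas. Its relative quantity was 1.12, 0.657 and 0.423 in Dicer_KO aortas 1, 2 and 3, against 1.28, 1.12 and 0.695 in Dicer_WT aortas. The groups overlapped, with Dicer_KO aorta 1 near Dicer_WT aorta 2 and Dicer_KO aorta 2 near Dicer_WT aorta 3. Its log2 fold change between genotypes was -0.56 ± 0.428 (SE, limma adjusted p = 0.359), with a 95% interval of -1.62 to 0.49. Leaving out Dicer_KO replicate 1 gave -0.92 and leaving out Dicer_KO replicate 3 gave -0.22, and the value was -0.39 and -0.83 without Dicer_WT replicates 1 and 3. The authors' deposited table of fold changes, Dicer_KO over Dicer_WT, gives 0.948 for miR-34a, 0.707 for miR-34b-3p and 0.709 for miR-34c. These equal the ratio of arithmetic means of the relative quantities, whereas the folds above are ratios of geometric means.

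**Figure D1:**
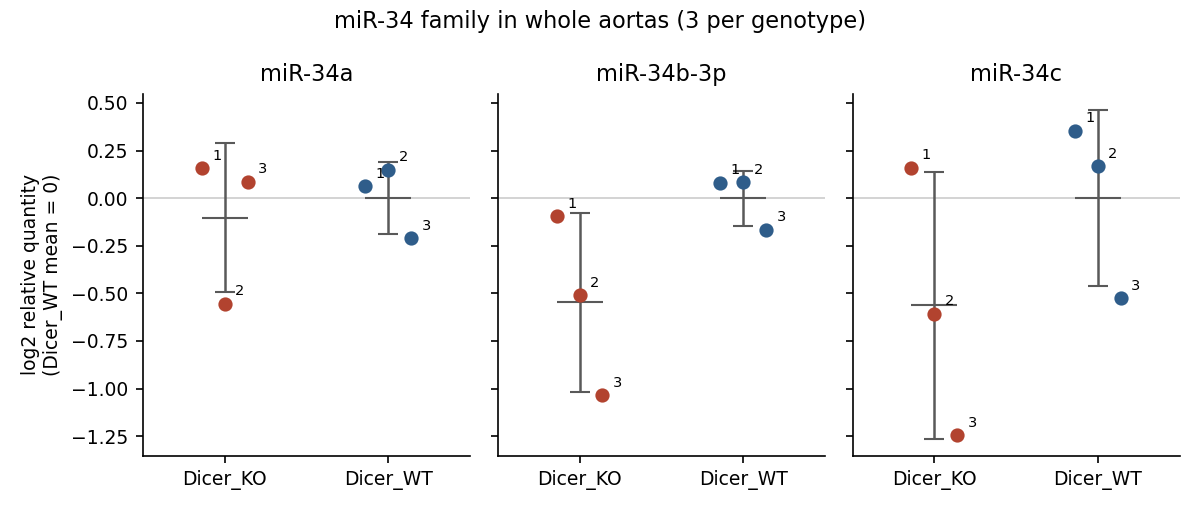
Log2 relative quantity (vertical axis, Dicer_WT mean at 0) of miR-34a, miR-34b-3p and miR-34c in each aorta, Dicer_KO left and Dicer_WT right. Points are aortas with their replicate number, horizontal bars are means and whiskers are SD (n = 3 each). Dicer_KO aorta 3 is the lowest point for miR-34b-3p at -1.03 and for miR-34c at -1.24, but stands at 0.087 for miR-34a.

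The spread among Dicer_KO aortas was wider than among Dicer_WT aortas for each member. On the log2 scale the SD of miR-34a was 0.392 in Dicer_KO and 0.188 in Dicer_WT aortas, that of miR-34b-3p 0.470 and 0.144, and that of miR-34c 0.703 and 0.463 (n = 3 each). Over the 330 assays detected in all aortas the median SD was 0.329 in Dicer_KO and 0.240 in Dicer_WT aortas. miR-34c varied more than most assays in both genotypes, since 88.8% of assays had a smaller SD in Dicer_KO and 81.2% in Dicer_WT aortas. For miR-34b-3p these shares were 69.1% in Dicer_KO and 25.5% in Dicer_WT aortas.

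The 3 members did not follow each other through all Dicer_KO aortas. miR-34b-3p and miR-34c were highest in aorta 1 and lowest in aorta 3, whereas miR-34a was lowest in aorta 2. In Dicer_KO aorta 3, miR-34a stood at 0.087 on the log2 scale, with miR-34b-3p at -1.03 and miR-34c at -1.24. The median over the 330 assays was -0.21, -0.37 and -0.57 in Dicer_KO aortas 1, 2 and 3, against 0.096, 0.083 and -0.17 in Dicer_WT aortas, so most assays were low in aorta 3 as well. The order of Dicer_KO aortas shown by miR-34b-3p and miR-34c was shared by 144 of 330 assays (43.6%).

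Because the 3 members were read on the same card, the difference of their log2 levels within an aorta needs no reference RNA. miR-34c minus miR-34b-3p, centred on the Dicer_WT mean, was 0.26, -0.098 and -0.21 in Dicer_KO aortas 1, 2 and 3, against 0.27, 0.084 and -0.36 in Dicer_WT aortas. The genotypes differed by -0.02 in this quantity, with an SD of 0.243 in Dicer_KO and 0.324 in Dicer_WT aortas (two-sided exact permutation p = 0.9, 0.9 after adjustment over 2 such tests). The ratio of the neighbours on chromosome 9 thus differed between genotypes by less than the spread between aortas. miR-34a minus miR-34c was -0.0023, 0.053 and 1.33 in the Dicer_KO aortas, against -0.29, -0.02 and 0.31 in the Dicer_WT aortas. That difference averaged 0.46 ± 0.754 in Dicer_KO and 0 ± 0.303 in Dicer_WT aortas (SD, n = 3 each, exact permutation p = 0.4, adjusted p = 0.8, where 3 against 3 cannot go below 0.1). It was 0.025 without Dicer_KO replicate 3, so this aorta carried it.
A further pair, miR-34a minus miR-34b-3p, was looked at after the values were seen and was not tested. Its values were 0.25, -0.045 and 1.12 in the Dicer_KO aortas, against -0.019, 0.064 and -0.045 in the Dicer_WT aortas. Dicer_KO aorta 3 was again the highest, but Dicer_KO aorta 1 also lay above all Dicer_WT aortas.

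**Figure D2:**
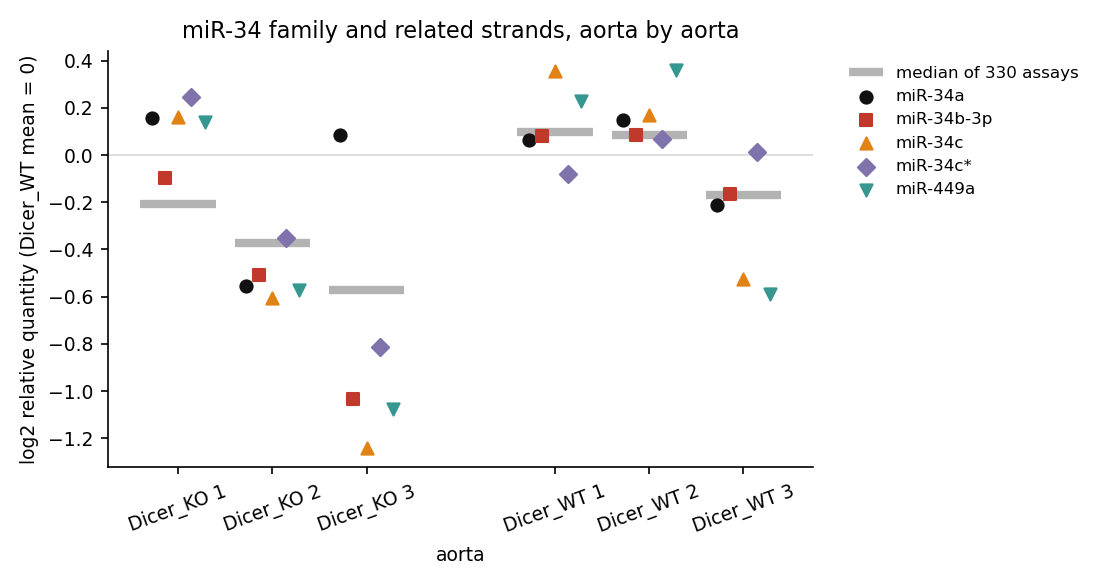
Log2 relative quantity (vertical axis, Dicer_WT mean at 0) in each of the 6 aortas, Dicer_KO at the left, for the 3 members, the other strand miR-34c* and the seed relative miR-449a, with grey bars for the median over the 330 assays detected in all aortas. In Dicer_KO aorta 3 the miR-34b and miR-34c strands and miR-449a lie between -0.81 and -1.24, below the median of -0.57, and miR-34a lies at 0.087.

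The other strand of the miR-34c hairpin and the miR-449 relatives were not called either. miR-34c*, the 3p strand that shares its seed with miR-34b-3p, had relative quantities of 1.19, 0.783 and 0.570 in Dicer_KO aortas 1, 2 and 3, against 0.946, 1.05 and 1.01 in Dicer_WT aortas. It was high in Dicer_KO aorta 1 and below all Dicer_WT aortas in the others, and its log2 fold change came to -0.31 ± 0.296 (SE, adjusted p of limma = 0.452). miR-449a, which carries the miR-34a seed on chromosome 13, had 1.10, 0.673 and 0.474 in Dicer_KO aortas, against 1.17, 1.29 and 0.665 in Dicer_WT aortas. Its log2 fold change was -0.50 ± 0.409 (adjusted p = 0.387), and its order among the Dicer_KO aortas was that of miR-34c. miR-449c, of the same cluster and seed, had -0.01 ± 0.651 (adjusted p = 0.991), and miR-449b gave no product in any aorta.

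Likeness to each member was measured as the root mean square difference of log2 relative quantity over the 6 aortas, after subtraction of each assay's mean, among 329 other assays detected in all aortas. The closest assays to miR-34c were miR-598 at 0.0998, miR-449a at 0.117 and miR-692 at 0.142, where the median assay was at 0.448. miR-34b-3p ranked 12 in that list, at 0.234, and miR-34a ranked 219, at 0.522. For miR-34b-3p the closest were miR-125b* at 0.0903, miR-199a-3p at 0.121 and let-7b* at 0.127, with a median of 0.317. miR-34c* ranked 23 there and miR-34c ranked 94. For miR-34a the closest were miR-29b* at 0.166, miR-350 at 0.172 and miR-29a at 0.186, with a median of 0.435, and miR-34b-3p ranked 155. The 6 points share the aortas and their reference RNAs, so these ranks describe the readings only. With centring on the mean, the closest set of miR-34c was the same, miR-214* took the first place for miR-34b-3p, and miR-350 that for miR-34a.

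Other microRNAs linked to p53 were read from 2 lists. The first held 16 microRNAs reported, mostly from human cells, as raised by p53 or processed with its help, of which 15 were on the array and detected in all aortas. Of these 15, 0 were called lower and 0 higher, where 1.86% and 0% of all assays tested were. At an unadjusted p under 0.05, 2 of the 15 were lower and 0 higher, where 24.4% of all assays were lower and 2.39% higher. Below 0 stood 12 of the 15, with a median of -0.42, beside 78.2% and a median of -0.42 over all assays. At the low end stood miR-429, an epithelial microRNA, at -0.84 ± 0.301 (SE, limma adjusted p = 0.148), and miR-143, abundant in smooth muscle, at -0.76 ± 0.255 (adjusted p = 0.137). The p53-induced miR-192 and miR-194, which are abundant in gut and liver, had 0.64 ± 0.369 and 0.32 ± 0.307 (adjusted p = 0.265 and 0.452), and miR-107, reported to restrain hypoxia signalling, had -0.27 ± 0.271 (adjusted p = 0.468). miR-145, which lies beside miR-143, had -0.42 ± 0.215, and miR-15a and miR-16, which lower BCL2, had -0.47 ± 0.224 and -0.43 ± 0.22 (adjusted p = 0.231, 0.226 and 0.229). The remaining members, miR-215, miR-22, miR-200a, miR-200b, miR-200c, miR-141 and miR-205, had adjusted p-values of 0.303 to 0.854. Among them miR-205 had the highest value of the list, at 0.86 ± 1.05 (SE, limma adjusted p = 0.545).

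The second list held 6 microRNAs reported, mostly from human cells, to bind the p53 mRNA, of which 5 were on the array. Of these 5, miR-504 was called lower and 0 higher, where 1.86% of all assays tested were called lower and 0% higher. It was detected in 3 of 3 Dicer_WT and 0 of 3 Dicer_KO aortas and was at least 165-fold lower, counting wells without product as Ct 35 (adjusted p of limma = 3.38e-05). It was thus fitted only because of its detection in Dicer_WT aortas. With all Dicer_KO wells set to Ct 35, its SD there, 0.154 on the log2 scale, was that of the reference RNAs alone. The p therefore does not measure how miR-504 varied among Dicer_KO aortas. The others were not called, namely miR-380-5p at -1.03 ± 0.23, miR-30d at -0.37 ± 0.2, miR-125b-5p at -0.079 ± 0.175 and miR-25 at 0.21 ± 0.211 (adjusted p = 0.0691, 0.245, 0.739 and 0.464). Wells without product also occurred for abundant assays. miR-23a, for example, was at Ct 40 in Dicer_KO aorta 2, against 20.4 and 20.8 in Dicer_KO aortas 1 and 3. Whether wells of miR-504 failed was not tested.

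**Figure D3:**
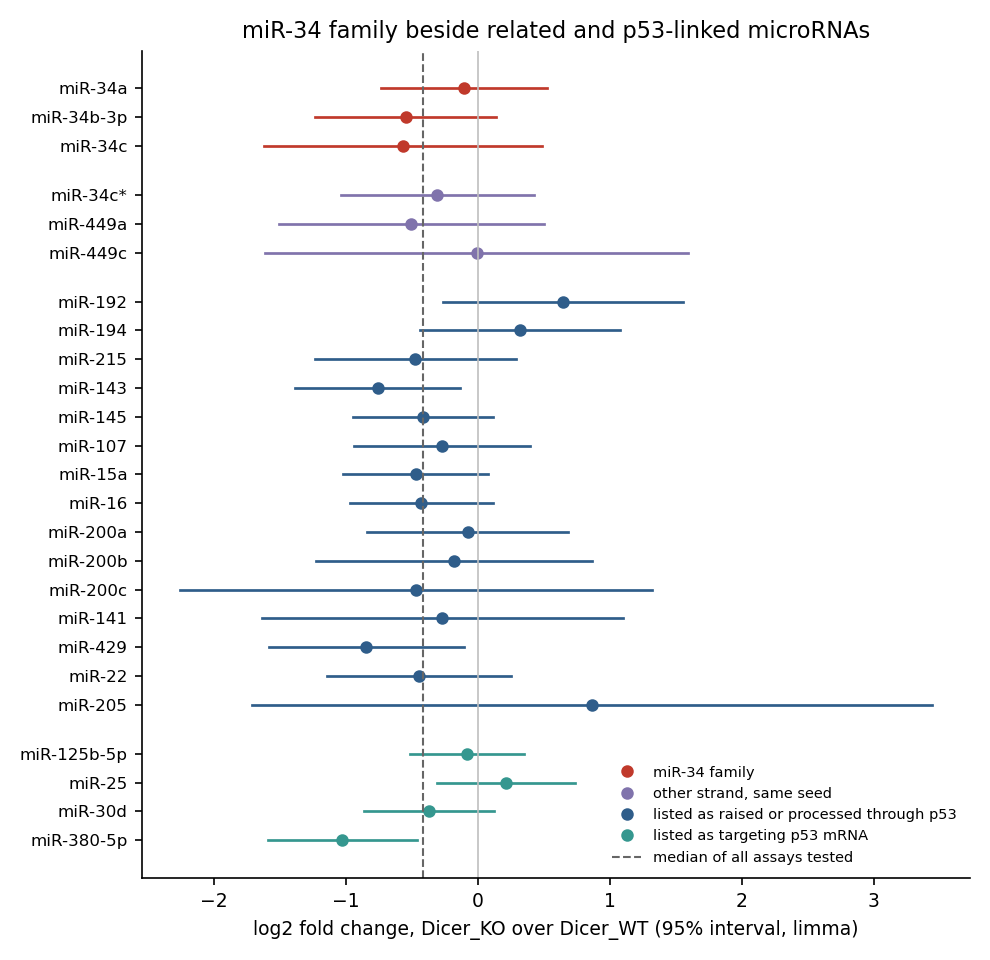
Log2 fold change of Dicer_KO over Dicer_WT (horizontal axis, points) with the 95% interval of limma (lines) for the 3 members, the strands of related sequence and the microRNAs of both p53 lists. miR-504 at -7.36 is not drawn. The dashed line is the median of all assays tested at -0.42, and the intervals of all 3 members cross both it and 0.

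Markers of other cell types are given beside these values, and their part in them was not tested. Of 9 myeloid microRNAs, 9 were below 0, where 78.2% of all assays were, and 7 were lower in every Dicer_KO than in every Dicer_WT aorta, where 32.6% of all assays were. Of the 9, 0 were called, where 1.86% of all assays were called lower. Their summed relative quantity ranged from 3.62 to 5.57 in Dicer_KO and from 6.92 to 11.6 in Dicer_WT aortas, without overlap. miR-147, which is among the 7, gave no detected product in Dicer_KO aortas and was fitted only because of its detection in Dicer_WT aortas. With its Dicer_KO wells set to the cutoff, its place below 0 and its separation were largely fixed beforehand, so they add no evidence of a difference. miR-147 also entered the sums, and sums without it were not taken. Within the list, miR-142-3p (-0.074) and miR-142-5p (-0.088) overlapped between genotypes (limma adjusted p = 0.802 and 0.755). The sums of 10 epithelial and ciliated markers tested overlapped, at 8.84 to 16.4 in Dicer_KO and 6.88 to 14.2 in Dicer_WT aortas, with miR-449b silent throughout. So did the sums of 4 endothelial markers, at 3.17 to 4.19 in Dicer_KO and 3.75 to 4.42 in Dicer_WT aortas. Of these 4, 0 were called, where 1.86% of all assays were called lower. miR-221 (-0.98) and miR-222 (-0.58) were lower in every Dicer_KO than in every Dicer_WT aorta, where 32.6% of all assays were. miR-126-3p (-0.0051) and miR-126-5p (0.47) overlapped between genotypes. The sums of 5 muscle markers overlapped as well, at 3.01 to 5.05 in Dicer_KO and 4.89 to 5.10 in Dicer_WT aortas. Of these 5, listed for smooth muscle, 0 were called, and miR-143 (-0.76) and miR-145 (-0.42) were lower in every Dicer_KO than in every Dicer_WT aorta, where 32.6% of all assays were. For miR-145 the nearest aortas were almost level, at -0.0552 in Dicer_KO and -0.0542 in Dicer_WT. The other members, miR-133a (-0.32), miR-133b (-0.24) and miR-1 (-0.067), which are best known from striated muscle, overlapped between genotypes. The erythroid miR-451 and miR-486 summed to 4.10 to 6.28 in Dicer_KO and 1.00 to 3.60 in Dicer_WT aortas, again without overlap. Neither was called, at 1.36 ± 0.532 and 1.12 ± 0.484 (SE, limma adjusted p = 0.176 and 0.202). Taken singly, miR-451 was higher in every Dicer_KO than in every Dicer_WT aorta, where 2.39% of all assays were. miR-486 overlapped between genotypes.

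The scale set the sign for miR-34a. Relative to the authors' references its log2 fold change was -0.10, without any reference -0.33 and relative to U6 alone -0.27, but it was 0.26 with mean centring, 0.29 after quantile normalization and 0.41 relative to U87 and Y1 (limma adjusted p = 0.364 to 0.766 over these 6 scales). The median of all assays moved too, to -0.64 without a reference, -0.61 relative to U6, -0.13 with mean centring, 0 after quantile normalization and 0.16 relative to U87 and Y1. Relative to that median, miR-34a stood 0.25 to 0.39 higher on each of the 6 scales. miR-34b-3p stood 0.054 to 0.19 below it on each scale. miR-34c stood 0.071 to 0.21 below it on 5 scales and 0.11 above it after quantile normalization. Apart from quantile normalization, each scale shifts all assays of a card in an aorta by the same amount. A distance from the median can then change only through differences between the cards, so these scales are not independent checks of it. The sizes of the other members moved with the scale as well. miR-34b-3p was at -0.18 with mean centring, -0.12 after quantile normalization and -0.0345 relative to U87 and Y1, and miR-34c at -0.20 with mean centring and -0.0515 relative to U87 and Y1.

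These positions also moved with single aortas. On the authors' scale with Dicer_KO replicate 3 left out, miR-34b-3p stood 0.012 and miR-34c 0.092 above the median of all assays, and miR-34a 0.12 above it, against 0.31 with all aortas. With Dicer_KO replicate 2 left out, miR-34a stood 0.55 above it. Relative to the median, miR-34b-3p was at -0.25 and miR-34c at -0.41 with Dicer_KO replicate 1 left out, against -0.13 and -0.15 with all aortas. miR-34c was at -0.0415 and -0.32 relative to it when Dicer_WT replicate 1 or 3 was left out.

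**Figure D4:**
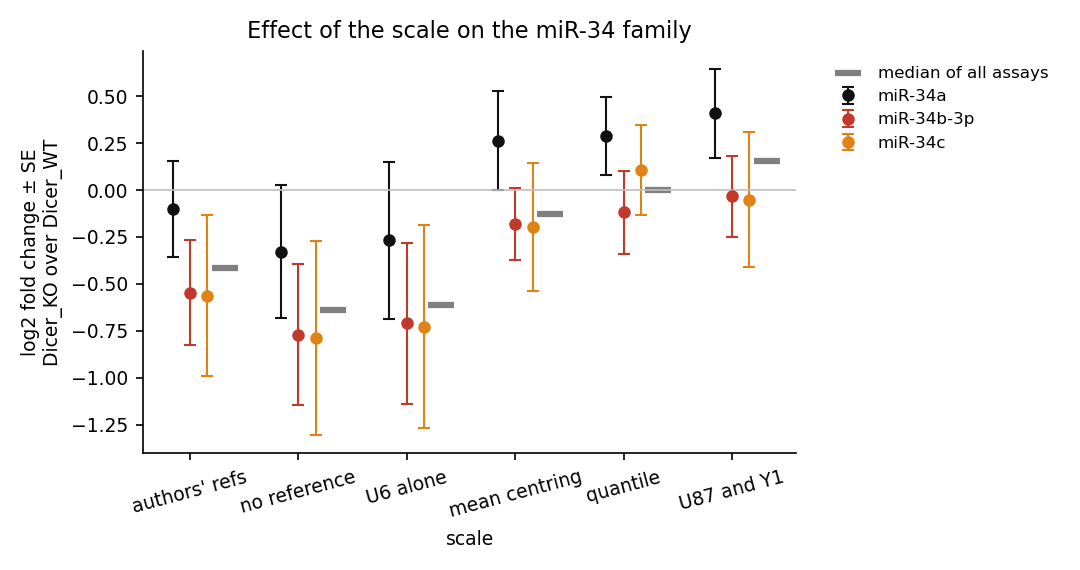
Log2 fold change of Dicer_KO over Dicer_WT with its SE (vertical axis) of the 3 members on 6 scales, with a grey bar for the median of all assays tested. miR-34a lies above the bar on each scale, and the members' values run from -0.79 for miR-34c without a reference to 0.41 for miR-34a relative to U87 and Y1. Apart from quantile normalization, the scales shift all assays of a card together, so the distance from the bar can change little.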

How the data were processed

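The authors deposited a Ct for each assay in each aorta, written as 40 where a well gave no product, and relative quantities as a linear ratio, made per the labels' protocols from TaqMan reverse transcription and preamplification. How Ct was called is not given in the sources used here. Decimal commas in 5 cells were read as points. From the values, the deposited ratio equals, on the log2 scale, the mean Ct of U6, snoRNA135 and snoRNA202 (with snoRNA429 on the second card) minus the assay's Ct, set to a mean of 0 over the Dicer_WT aortas (largest difference 5.22e-06).

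Wells at or above Ct 35 were set to 35. The 377 assays detected in at least 2 aortas of 1 group were fitted with limma 3.58.1 in R 4.3.3 (two-sided, Benjamini-Hochberg over all 377, threshold 0.05), after a test on simulated data. Alternatives covered references, cutoffs, undetected wells, filters, single aortas and a replicate block. The labels call the replicates biological. No technical batch is recorded.

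The members, lists and tests were chosen with earlier results of these data known. Named were the members, their seed relatives and other strands, both p53 lists and the 3 assays most like each member. Sequences are from RefSeq, GRCm38.p6. The 2 listed microRNAs without a matching assay were miR-605 and miR-33.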

Additional observations from a re-analysis of the deposited data

How the results depend on the processing

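None of the 3 members passed the threshold in any of 19 alternatives, with limma adjusted p from 0.364 to 0.947 for miR-34a, 0.0753 to 0.95 for miR-34b-3p and 0.124 to 0.951 for miR-34c. These are not all distinct checks. The settings for cutoff, undetected wells and filter left each member's fold change unchanged, since all members were detected in every aorta. The authors' values as they stand gave the members the same fit as Ct 40 as measured. The sign of miR-34a turned, to 0.41 relative to U87 and Y1, 0.26 with mean centring and 0.29 after quantile normalization, and that of miR-34c to 0.11 after quantile normalization. On these 3 scales miR-34b-3p was at -0.0345, -0.18 and -0.12, and relative to U87 and Y1 or with mean centring miR-34c was at -0.0515 and -0.20. Leaving out 1 aorta gave -0.23 to 0.12 for miR-34a, -0.77 to -0.30 for miR-34b-3p and -0.92 to -0.22 for miR-34c. The mean of the 3 members, -0.40 between genotypes, was 0.11 relative to U87 and Y1, 0.092 after quantile normalization and -0.64 to -0.24 with 1 aorta left out. miR-34c minus miR-34b-3p within an aorta ranged from -0.20 to 0.12 with 1 aorta left out, and miR-34a minus miR-34c from 0.025 to 0.69. Of all assays, 7 were called, against 26 at Ct 32, 15 with undetected wells missing, 13 with Ct 40 as measured or the authors' values as they stand, and 22 among assays detected in all aortas, and 5 to 64 with 1 aorta left out, the most without Dicer_KO replicate 1. The causes were not tested. With the replicate block the values were -0.55 for miR-34b-3p (adjusted p = 0.149) and -0.56 for miR-34c (adjusted p = 0.137), and 7 assays were called. Same-numbered aortas deviated together at 0.179, -0.101 and 0.152 over 330 assays, so the numbers were not taken as pairs. Not every aorta correlated best with its own number.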
